A study of Equus caballus with 78 samples.

Results

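MicroRNAs in extracellular vesicles from the synovial fluid of the osteoarthritic joint were compared with those from the control joint of the same horses at time point 63, the last of the 7 sampled. The members are the 6 synovial fluid libraries that the labels assign to that time point, out of 78 libraries in the series. Of these, 3 are labelled OA and 3 are labelled CTRL. Horses 4, 6 and 8 each gave both joints, so the comparison is paired by animal. No library of horse 2 at this time point was analysed here. The OA group is the joint carrying the osteoarthritis model, and the CTRL group is a joint of the same animals, so a joint of a horse without the model is not part of the comparison. The labels give time points without a unit. They do not state how osteoarthritis was brought about, which joints were sampled, or the breed, sex, age and any treatment of the horses. Both groups share the tissue (synovial fluid), the fraction (extracellular vesicles) and the library kit.

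Synovial fluid lubricates and feeds the joint. It is a filtrate of blood plasma to which cells of the synovial membrane, chiefly fibroblast-like cells and macrophages, add hyaluronan and proteins. Extracellular vesicles are membrane particles that cells release, and they carry microRNAs, short RNAs that pair through their seed with messenger RNAs and lower their stability or translation. Some microRNAs are known as marks of a cell source. In mammals miR-451 and miR-144 belong to red blood cells, miR-126 to endothelium, miR-142 and miR-223 to leukocytes, miR-199 and miR-214 to mesenchymal cells, and miR-140 to cartilage. Because a fluid was sequenced in bulk, fewer vesicles of a given source and less of a microRNA per vesicle cannot be told apart.

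Small RNA sequencing gave 6099976 to 12613572 reads per library, and horse microRNAs took a small share of them. In the OA joint microRNAs were 0.461% of the library in horse 4, 0.490% in horse 6 and 0.793% in horse 8. In the CTRL joint they were 0.616% in horse 4, 0.361% in horse 6 and 0.0712% in horse 8. The joints overlapped, and the CTRL fluid of horse 8 lay below all other libraries. The mean was 0.581% ± 0.184 (SD, n = 3) in the OA joint and 0.350% ± 0.273 (SD, n = 3) in the CTRL joint (two-sided exact permutation test, p = 0.4; exact sign-flip test over the horses, p = 0.75). With 3 horses the exact permutation test cannot go below p = 0.1, and the exact sign-flip test cannot go below p = 0.25. Without horse 8 the difference was -0.0133 percentage points.

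The CTRL library of horse 8 stood apart from the start. It held 4342 microRNA reads, against 50390 and 24121 in the CTRL libraries of horses 4 and 6 and 49725, 61785 and 71917 in the OA libraries of horses 4, 6 and 8. That is the lowest of the 52 synovial fluid libraries of the series, whose highest held 240294. Its microRNA share and its share of spike-in reads (5.52%, against up to 61.7%) were also the lowest of the 52. Levels below are CPM, the reads of a microRNA scaled to the sum of all horse microRNA reads of its library, and 1 read is 230.3 CPM in that library but 13.9 CPM in the OA library of the same horse. A level of 0 there allows up to 691 CPM, the value of 3 reads, which covers counting error only. Results that changed most with this library are also given without it. Sequencing lane follows the horse and not the joint: both fluids of horse 6 were on lane 1, and both of horses 4 and 8 on lane 2.

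**Figure D1:**
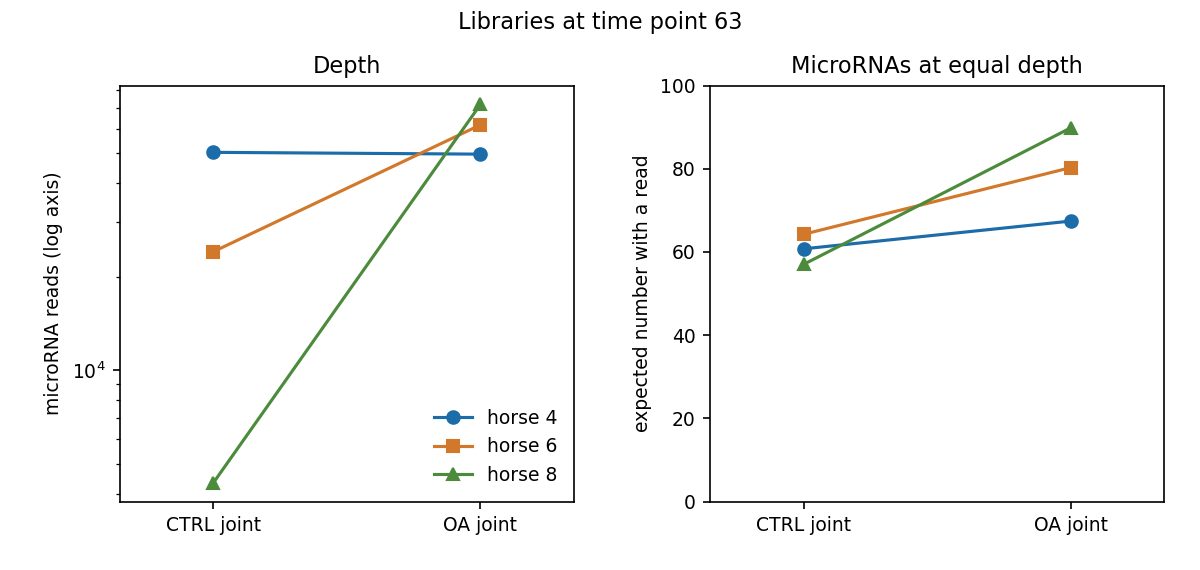
MicroRNA reads and number of microRNAs with a read in each of the 6 libraries of time point 63, by horse and joint. The CTRL library of horse 8 has 4342 microRNA reads, and at that depth each OA library still holds more different microRNAs than each CTRL library.

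More different microRNAs were read in the OA fluids. At their own depth the OA libraries held a read of 72, 101 and 93 microRNAs in horses 4, 6 and 8, and the CTRL libraries held 67, 77 and 57. Since a deeper library finds more, each library was also reduced to 4342 reads. This evens out the reads and not the molecules captured: the libraries carry no molecular identifiers in these tables, and most values were either 0 or 20 reads and more. At that depth the expected number was 67.4, 80.3 and 89.8 in the OA joints and 60.7, 64.2 and 57 in the CTRL joints of the same horses. All 3 OA values lay above all 3 CTRL values, and each horse had more in its OA joint. The means were 79.2 ± 11.2 (SD, n = 3) and 60.7 ± 3.62 (SD, n = 3), a difference of 18.5 microRNAs (exact permutation test, two-sided, p = 0.1, the smallest that 3 against 3 allow; exact sign-flip test, p = 0.25, also the smallest). Within lane 2 alone the difference was 19.7, and without horse 8 it was 11.3.

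Of 690 horse microRNA names in the tables, 135 had a read in at least 1 of the 6 libraries. In the OA joints 126 were read and in the CTRL joints 97, and 42 were read in all 6 libraries. Presence was uneven at low levels: 38 microRNAs were read in OA joints only, 32 of them in 1 library, and 9 were read in CTRL joints only. Values tended to be either absent or sizeable. Of 467 non-zero values, 65 were 1 or 2 reads, 8 were between 3 and 19 reads, and 394 were 20 reads or more. Altogether 40 microRNAs were read in 1 library only, 19 of them in the OA fluid of horse 6 and 0 in the CTRL fluid of horse 4. In 25 of these 40 the count was 20 reads or more. The highest was miR-1388, with 376 reads in the OA fluid of horse 6 and none in the other 5 libraries.

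The abundant microRNAs overlapped between the joints, and miR-26a and let-7c were among the 5 highest in each of the 6 libraries. miR-26a was the highest over the 6 libraries, with 88949, 111807 and 136963 CPM in the OA joints of horses 4, 6 and 8 and 130779.9, 93653 and 123906 CPM in their CTRL joints. The ranges overlapped, with the OA value lower in horse 4 and higher in horses 6 and 8. let-7c, a member of the let-7 family of differentiation-associated microRNAs, was at 97094, 77867 and 123587 CPM in the OA joints and 101647, 127855 and 51819 CPM in the CTRL joints. Horse 8 alone was higher in its OA joint. miR-10b, which is encoded in a HOX cluster, was at 106365, 90329 and 94665 CPM in the OA joints and at 96209.6, 98420.5 and 35237 CPM in the CTRL joints. Its 3 OA values were close together, and the low CTRL value was that of horse 8.

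miR-21, a microRNA raised in many inflamed and fibrotic tissues, was at 93675, 78449 and 39740.3 CPM in the OA joints and 60289.7, 37105 and 94196 CPM in the CTRL joints. It was higher in the OA joint of horses 4 and 6 and lower in that of horse 8. miR-486-5p, a red blood cell microRNA, was at 91141, 78708 and 26058 CPM in the OA joints and 18436, 86729 and 67480.4 CPM in the CTRL joints, and the joints of horse 4 and horse 8 differed in opposite directions. miR-199a-3p and miR-199b-3p had identical counts in all 6 libraries and are treated as 1 signal, since in mammals the mature sequences of these arms are the same. They were at 32679.7, 45675 and 77965 CPM in the OA joints and 43421, 75826 and 17734 CPM in the CTRL joints. Here too horse 8 went against horses 4 and 6.

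miR-92a, of the miR-17-92 cluster, averaged 27915 ± 9916 CPM in the OA joints and 35839 ± 15848 CPM in the CTRL joints (SD, n = 3 each). miR-221 averaged 20177 ± 13613 and 25885 ± 18113 CPM in the same order. miR-16, a ubiquitous microRNA that is abundant in blood cells, departed most: 11865, 13628 and 11166 CPM in the OA joints against 38479.9, 9618 and 58498 CPM in the CTRL joints. Its OA values were tightly grouped, its CTRL values were 9618 to 58498 CPM, and horse 6 was higher in its OA joint. Across these 10 names the fitted log2 fold change ran from -1.44 for miR-16 (SE 1.00) to 0.44 for miR-10b (SE 0.60), and none differed in 1 direction in all 3 horses.

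**Figure D2:**
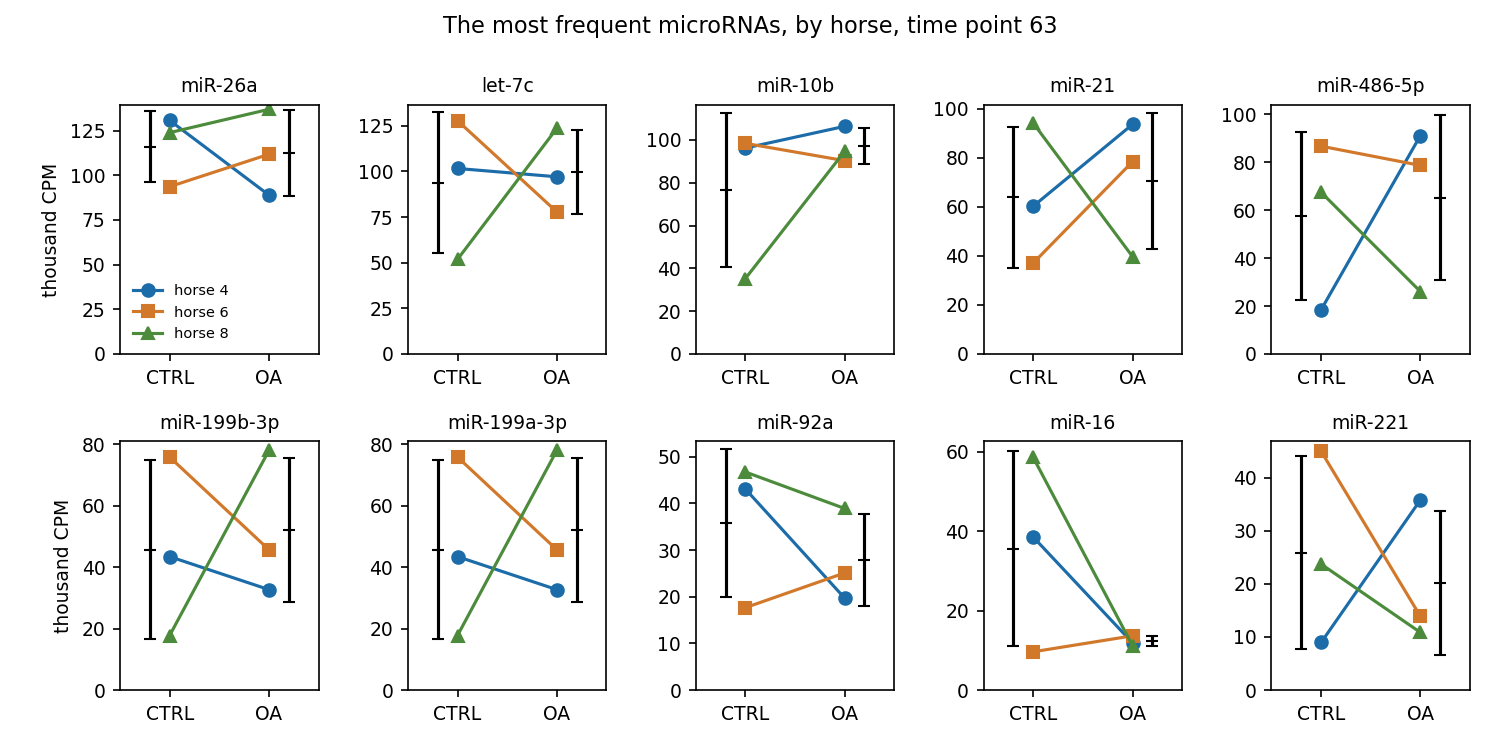
Levels of the 10 microRNAs with the highest mean CPM over the 6 libraries, by joint and horse. The OA and CTRL points overlap for each of the 10. The CTRL library of horse 8 is the lowest of the 6 for let-7c, miR-10b, miR-199a-3p and miR-199b-3p. It is the highest for miR-21, miR-92a and miR-16.

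No microRNA passed the test between the joints. edgeR's quasi-likelihood test, fitted over all 52 synovial fluid libraries, tested 139 microRNAs, 115 of which had a read in the 6 libraries. At an adjusted p under 0.05 it called 0 (0.0%), and at an unadjusted p under 0.05 it found 3 (2.16%), with 2 higher (1.44%) and 1 lower (0.719%) in the OA joint. These were miR-151-5p and miR-340-5p, read in OA joints only, and miR-486-3p, read in 1 CTRL library only (edgeR adjusted p = 0.712 for each). A fit with the horse as a block also called 0, with 4 at an unadjusted p under 0.05. DESeq2 called 8 (5.76%): miR-1388, miR-140-3p, miR-182, miR-224, miR-340-5p, miR-660 and miR-744 as higher in the OA joint and miR-487b as lower. Each of these 8 was at 0 reads in every library of 1 joint. Of the 8, miR-340-5p and miR-744 were the ones with reads in all 3 OA libraries, and miR-487b rested on 2 reads in all. miR-1388 and miR-660 were read in 1 OA library. miR-140-3p, miR-182 and miR-224 were read in 1 OA library, with 1 or 2 reads in another.

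The error of single microRNAs, derived from the fold change and its F statistic, was wide. Among the 42 microRNAs read in all 6 libraries the SE of the log2 fold change ran from 0.47 to 2.96, with a median of 1.30. Among the other 73 tested ones with a read it ran from 1.62 to 4.89, with a median of 3.70. The log2 fold change was above 0 for 71 and below 0 for 44 of the 115, with a median of 0.44. For the 42 read everywhere it was above 0 for 18 and below 0 for 24, with a median of -0.20. The lean towards the OA joint over all 115 thus lay in microRNAs that some library lacked.

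**Figure D3:**
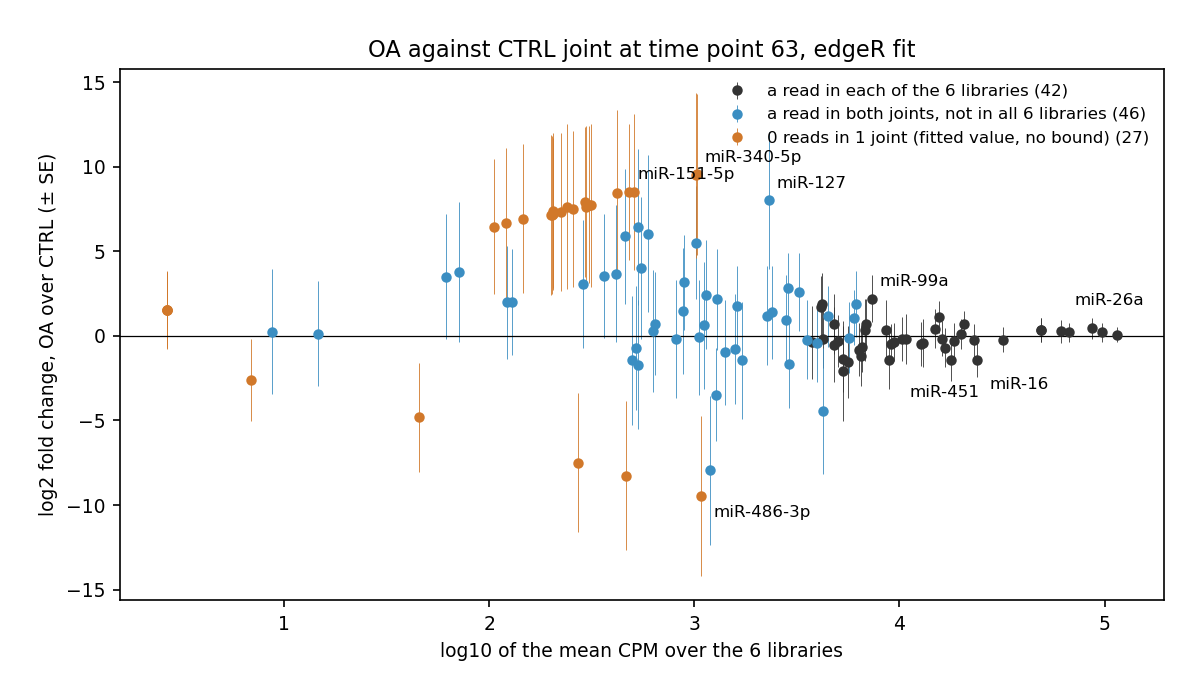
Fitted log2 fold change (OA over CTRL) of the tested microRNAs against their mean CPM on a log axis, separating those read in all 6 libraries from those at 0 in some library. The 42 read in all 6 have a median of -0.20, and the widest values belong to microRNAs at 0 in some library.

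The joints separated completely for 13 of the 135 microRNAs (9.63%), whose 3 OA levels lay all above or all below the 3 CTRL levels. Labels unrelated to the joint would reach this for a fraction of 0.1 where no values tie, close to the share seen. OA was above for 10 (7.41%) and below for 3 (2.22%). Of the 10 that were above, 8 were at 0 in at least 1 CTRL library, and among the 42 read in all 6 libraries the counts were 2 above (4.76%) and 3 below (7.14%). Without the CTRL library of horse 8, 15 of 134 were above (11.2%) and 6 below (4.48%). None of the 13 passed edgeR's test (adjusted p = 0.712 to 1.00). With each 0 set to the value of 3 reads in its library, 8 of the 10 were still above and 3 of the 3 still below. The horse-by-horse values follow; they are ordered by what each microRNA is known for, and no grouping among the 13 was tested.

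miR-99a, which shares a primary transcript with let-7c in human and is known to lower mTOR, was at 15365, 9873 and 10387 CPM in the OA joints of horses 4, 6 and 8. In their CTRL joints it was at 2421, 5555 and 230.3 CPM. The last value is 1 read, and each horse was higher in its OA joint, by a fitted log2 fold change of 2.21 (SE 1.41; edgeR adjusted p = 0.712). Without the CTRL library of horse 8 it was 1.51 (SE 1.62). let-7c itself did not separate the joints (0.21, SE 0.55).

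miR-125b-5p, which has a copy clustered with miR-99a, was at 4947, 8189.7 and 3559.7 CPM in the OA joints and 2500.5, 166 and 0 CPM in the CTRL joints. miR-125a-5p, which shares its seed, was at 5389.6, 6442 and 3254 CPM in the OA joints and 1072, 1078 and 0 CPM in the CTRL joints. Both were higher in the OA joint of all 3 horses, with log2 fold changes of 2.61 (SE 2.31) and 2.83 (SE 2.10). Without the CTRL library of horse 8 these were 2.01 (SE 2.61) and 2.15 (SE 2.54), and leaving out 1 horse moved that of miR-125b-5p between 1.72 and 5.72. In human, miR-99b and let-7e are encoded beside miR-125a, and neither separated the joints. miR-99b was at 7159, 6150.4 and 4742 CPM in the OA joints and 2143, 6550.3 and 0 CPM in the CTRL joints. let-7e was at 4827, 5098 and 11861 CPM in the OA joints and 6469.5, 12064 and 461 CPM in the CTRL joints, lower in the OA joint of horses 4 and 6. miR-100, the close relative of miR-99a, also overlapped: it was at 9372, 1683 and 639.6 CPM in the OA joints and 4584, 5265 and 7139.6 CPM in the CTRL joints, lower in the OA joint of horses 6 and 8.

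Of the 13, miR-146b-5p and miR-142-5p are known from immune cells. miR-146b-5p is a relative of miR-146a, which NF-kB induces and which dampens Toll-like receptor signalling. It was at 6295, 5406 and 7968 CPM in the OA joints and 5179.6, 41.5 and 230.3 CPM in the CTRL joints. The CTRL values of horses 6 and 8 are 1 read each, while horse 4 differed little between its joints (log2 fold change 1.88, SE 1.82; 1.31, SE 2.05 without the CTRL library of horse 8). Leaving out 1 horse moved it between 1.21 and 5.59. miR-146a overlapped, at 7481, 2282 and 8899 CPM in the OA joints and 2262, 3814 and 230.3 CPM in the CTRL joints.

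miR-142-5p, made in blood-forming cells, was at 1589, 2849 and 1919 CPM in the OA joints and 1409, 0 and 0 CPM in the CTRL joints. Again horse 4 had close to equal levels, and horses 6 and 8 had reads in the OA joint only (log2 fold change 2.15, SE 2.98; 1.55, SE 3.37 without the CTRL library of horse 8). Leaving out 1 horse moved it between 1.28 and 9.61, the highest without horse 4. That fit has no CTRL read left, so its value depends on the prior count. miR-223, the neutrophil and monocyte microRNA, was at 2413, 6490.2 and 1502 CPM in the OA joints and 3869.8, 0 and 0 CPM in the CTRL joints. It was the same pattern with a higher CTRL value in horse 4, so its groups overlapped.

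miR-199b-5p, of the mesenchymal miR-199 genes, was at 1187, 2266 and 2225 CPM in the OA joints and 0, 1161 and 0 CPM in the CTRL joints (log2 fold change 2.44, SE 3.20; 1.63, SE 3.76 without the CTRL library of horse 8). Leaving out 1 horse moved it between 1.75 and 9.18, and the upper value comes from a fit with no CTRL read left and depends on the prior count. The other arm, at far higher levels, overlapped as described above. miR-127, of the imprinted DLK1-DIO3 region, was at 9874, 1877 and 2002 CPM in the OA joints and 0, 41.5 and 0 CPM in the CTRL joints. That is 751 reads against 1, a ratio of depth-scaled counts of 323 with a 95% exact interval of 57.8 to 12768 that covers counting error only.

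The remaining 3 were at 0 in every CTRL library. In those libraries a 0 allows up to 59.5 CPM in horse 4, 124 CPM in horse 6 and 691 CPM in horse 8. miR-340-5p was at 2775, 1149 and 2225 CPM in the OA joints (369 reads in all), above those limits in all 3 horses. miR-744 was at 1810.0, 631 and 598 CPM (172 reads), and its level in horse 8 lies under the limit of that horse's CTRL library, so no difference is measured there. miR-151-5p was at 20.1, 1651 and 1209.7 CPM (190 reads). Its value in horse 4 is 1 read and lies under the limit, so its difference rests on horses 6 and 8. None of the 3 is at 0 throughout the CTRL joint at other times: among 23 CTRL libraries of time points 0 to 56, miR-340-5p was read in 11, miR-744 in 6 and miR-151-5p in 13.

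In the opposite direction, miR-451 was lower in the OA joint of all 3 horses. This red blood cell microRNA, which is matured by AGO2 without Dicer, was at 4585, 8999 and 13126 CPM in the OA joints and 18535, 16086 and 45371 CPM in the CTRL joints. The log2 fold change was -1.41 (SE 1.24; edgeR adjusted p = 0.957), and -0.99 (SE 1.18) without the CTRL library of horse 8. miR-107b, a relative of the miR-103/107 family by name, was at 3821, 5325 and 2447 CPM in the OA joints and 12741, 8209 and 6218 CPM in the CTRL joints (-1.17, SE 1.78). miR-186 was at 1106, 6749 and 5103 CPM in the OA joints and 8533, 7669.7 and 8752 CPM in the CTRL joints (-0.81, SE 1.59). For miR-186 the gap in horse 6 was small, and horse 4 carried the lowest level. All 3 were read in every library, so none rests on an absent value.

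**Figure D4:**
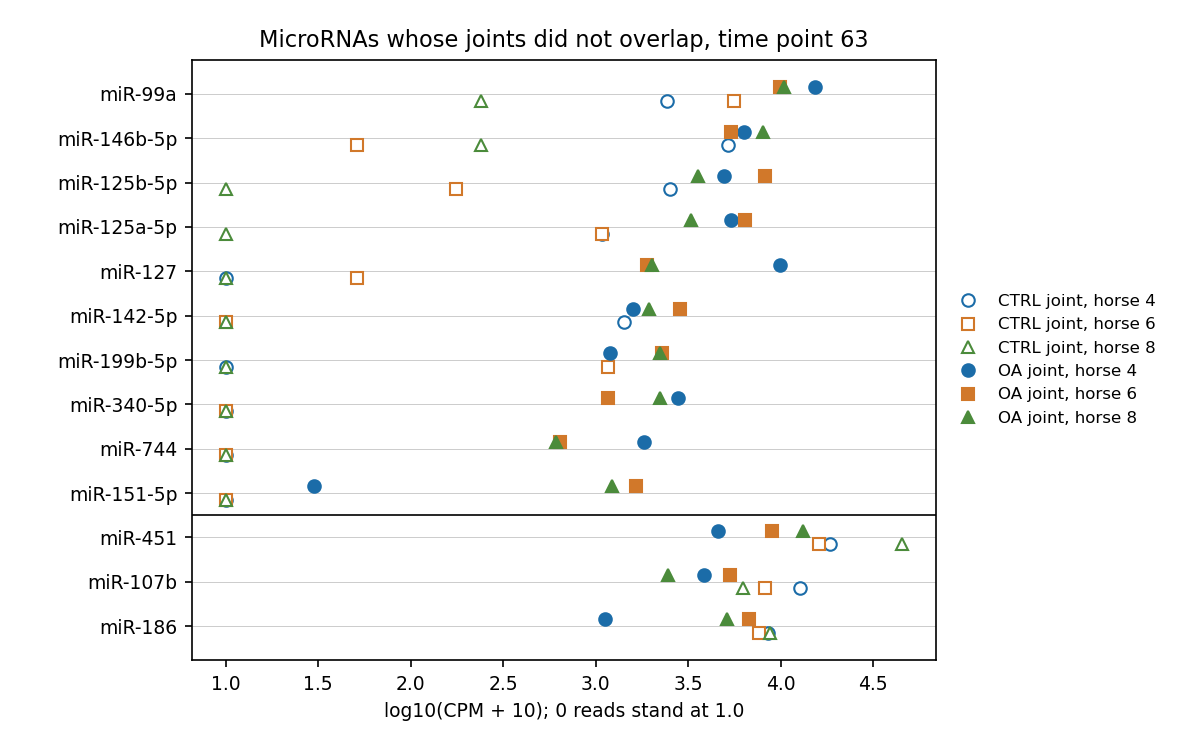
Levels in the 6 libraries, as log10 of CPM plus 10, for the 13 microRNAs whose OA and CTRL levels did not overlap. Markers differ by horse and are open for the CTRL joint and filled for the OA joint. In 10 the 3 OA points lie above and in 3 below; miR-340-5p, miR-744 and miR-151-5p are at 0 in all CTRL libraries.

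A further few differed in 1 direction in each horse without separating the groups. Counting those that separated, 14 of 135 were higher in the OA joint of all 3 horses (10.4%) and 4 were lower (2.96%). miR-22, abundant in many tissues, was at 26828, 23355 and 24779 CPM in the OA joints and 23755, 14966 and 10134 CPM in the CTRL joints. Its OA values were close together and its log2 fold change was 0.70 (SE 0.79). miR-126-5p, an endothelial microRNA, was at 14198, 11232 and 3559.7 CPM in the OA joints and 4545, 3317 and 0 CPM in the CTRL joints (1.89, SE 1.94). The other arm of the same hairpin, miR-126-3p, went the other way in 2 horses: it was at 14882, 13774 and 3852 CPM in the OA joints and 6688, 22553 and 16582 CPM in the CTRL joints (-0.42, SE 1.43). The difference between the arms was not tested.

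Several microRNAs with wide fold changes came from a single library. miR-140-3p, the cartilage microRNA, was at 0, 32.4 and 1724 CPM in the OA joints and 0 in the CTRL joints, so that the OA fluid of horse 8 held nearly all of its 126 reads. miR-486-3p was read only in the CTRL fluid of horse 8, with 28 reads. miR-144, transcribed together with miR-451, had 31 reads in that same library and 1 read in the OA fluid of horse 4. Both are red blood cell microRNAs and both rest on the shallowest library. miR-8917 and miR-7177b, with 67 and 39 reads, were read only in the CTRL fluid of horse 6. miR-532-5p was at 7382, 41.5 and 17043 CPM in the CTRL joints and 0, 0 and 918 CPM in the OA joints, lower in the OA joint of each horse, although the OA level of horse 8 exceeded the CTRL level of horse 6.

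MicroRNAs were also grouped into 17 lists by cell or tissue of origin, family, genomic region or induction in inflammation, and some stand on more than 1 list. No member of any list was called by edgeR. DESeq2 called 3 members, miR-140-3p of the cartilage list, miR-182 of the epithelial list and miR-487b of the DLK1-DIO3 list. Several lists turned with the CTRL library of horse 8, and counts without it are given for these. Of 8 red blood cell microRNAs, 2 had a log2 fold change above 0 and 6 below. Their median was -0.94, against 0.44 over all 115 and -0.20 over the 42 read in all 6 libraries. Their summed share of microRNA reads was 13.6%, 13.7% and 10.3% in the OA joints of horses 4, 6 and 8 and 14.3%, 13.6% and 24.8% in the CTRL joints. Horses 4 and 6 were nearly equal between joints, and the CTRL fluid of horse 8 was high. Without that library 3 were above 0 and 4 below. The median was then -0.15, against 0.68 over all microRNAs and -0.23 over those 42. Over the 46 other synovial fluid libraries the share was 4.32% to 42.4%, with a median of 14.5%. Of 7 platelet microRNAs 2 were above 0 and 5 below (median -0.27), and their share overlapped, at 3.19% to 8.64% in the OA joints and 5.39% to 9.58% in the CTRL joints.

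Of 5 myeloid microRNAs, 4 were above 0 and 1 below, with a median of 1.69, and without the CTRL library of horse 8 the counts were the same with a median of 1.00. Their share was 1.78%, 1.70% and 2.13% in the OA joints and 1.27%, 0.597% and 0.0461% in the CTRL joints. The groups did not overlap, with or without horse 8, in whose CTRL fluid 3 of the 5 were at 0. That fluid held 1 read each of miR-146a and miR-146b-5p, the list's most abundant members, which also stand on the inflammation-induced list. In horse 4, miR-146a (7481 against 2262 CPM) and miR-146b-5p (6295 against 5180 CPM) were higher in the OA joint. There miR-142-5p was close to equal (1589 against 1409 CPM), and miR-223 was lower in the OA joint (2413 against 3870 CPM). The other synovial fluid libraries had a median share of 1.63%, which the OA joints exceeded slightly and the CTRL joints fell short of. The 6 lymphocyte microRNAs split evenly, 3 above and 3 below 0. Their summed share was 3.58%, 3.86% and 2.96% in the OA joints and 1.97%, 2.79% and 2.86% in the CTRL joints, a narrow separation. It depends on single members. Without miR-28-3p, which also stands on the miR-28 and miR-151 list, the shares overlap. They also overlap without miR-181a or without miR-150. miR-181a, the most abundant member, was at 23570, 28712 and 10387 CPM in the OA joints and 2897, 14510 and 13128 CPM in the CTRL joints. Another member, miR-342-3p, was at 0, 32.4 and 3657 CPM in the OA joints and 7164, 0 and 6449 CPM in the CTRL joints. Of 4 endothelial microRNAs 3 were above 0 and 1 below, and their shares overlapped (1.25% to 3.88% in the OA joints, 1.34% to 3.06% in the CTRL joints).

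Of 13 fibroblast and mesenchymal microRNAs, 10 were above 0 and 3 below, with a median of 0.44, equal to that of all 115. Their share was 23.9%, 23.3% and 29.3% in the OA joints and 22.3%, 27.9% and 8.82% in the CTRL joints. The low value again was the CTRL fluid of horse 8, where 7 of the 13 were at 0. Without it 6 of the 13 were above 0 and 7 below, and 2 of the 13 had no more than 3 reads in either joint. Among cartilage microRNAs 4 were tested, 2 above and 2 below 0 (3 and 1 without that library), and their shares were 2.37% to 3.12% in the OA joints and 2.44% to 3.35% in the CTRL joints. Inflammation-induced microRNAs were 3 above and 1 below 0 (median 0.95), with overlapping shares of 5.76% to 10.7% in the OA joints and 4.31% to 9.47% in the CTRL joints. Skeletal muscle microRNAs were not read in any of the 6 libraries, and the 3 epithelial ones were read in OA joints only. These were miR-200c in horse 6 with 76 reads, miR-205 in horse 8 with 52, and miR-182 in horse 8 with 44 and in horse 4 with 1. The 1 read in horse 4 (20.1 CPM) lies under what a 0 allows in that horse's CTRL library (59.5 CPM). Of 3 liver and gut microRNAs 1 was above 0 and 2 below, with miR-192 at 0, 2751 and 0 CPM in the OA joints and 4882, 2405 and 230.3 CPM in the CTRL joints.

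By family, the let-7 microRNAs had 6 of 7 above 0 with a median of 0.36 (3 of 7 without the CTRL library of horse 8, median -0.12), and summed to 13.2%, 13.2% and 17.4% in the OA joints and 14.1%, 19.0% and 10.5% in the CTRL joints. The miR-17-92 cluster and its relatives had 2 above 0 and 4 below (median -0.34), which without that library became 4 above and 2 below (median 0.54). Their share was 3.82%, 3.66% and 6.23% in the OA joints and 7.38%, 2.56% and 12.0% in the CTRL joints. It was lower in the OA joint of horses 4 and 8 and higher in that of horse 6. The family of miR-28 and miR-151 had 3 of 3 above 0 (median 1.49). Its summed share was 0.889%, 1.14% and 1.09% in the OA joints and 0.401%, 0.547% and 0.875% in the CTRL joints, without overlap. Its abundant member miR-28-3p was at 7381, 8675 and 8496 CPM in the OA joints and 4009, 3979.9 and 8752 CPM in the CTRL joints. The miR-29 family, which targets collagen messages, had 0 of 2 above 0, and the miR-30 family 1 of 3 (2 of 3 without the CTRL library of horse 8).

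The imprinted DLK1-DIO3 microRNAs were low in the CTRL joints. Of 37 listed, 13 had a read in the 6 libraries and 5 were tested. Of these, 3 had no more than 3 reads in either joint and give no direction, and the other 2, miR-127 and miR-376c, were above 0. Their share was 1.49%, 0.233% and 0.271% in the OA joints and 0%, 0.0207% and 0.0230% in the CTRL joints, without overlap and also without horse 8. miR-127 made up most of it: miR-376c, the next, was at 3499, 32.4 and 0 CPM in the OA joints and 0, 41.5 and 0 CPM in the CTRL joints. The median of the other synovial fluid libraries was 0.386%, with a range of 0% to 2.92%.

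**Figure D5:**
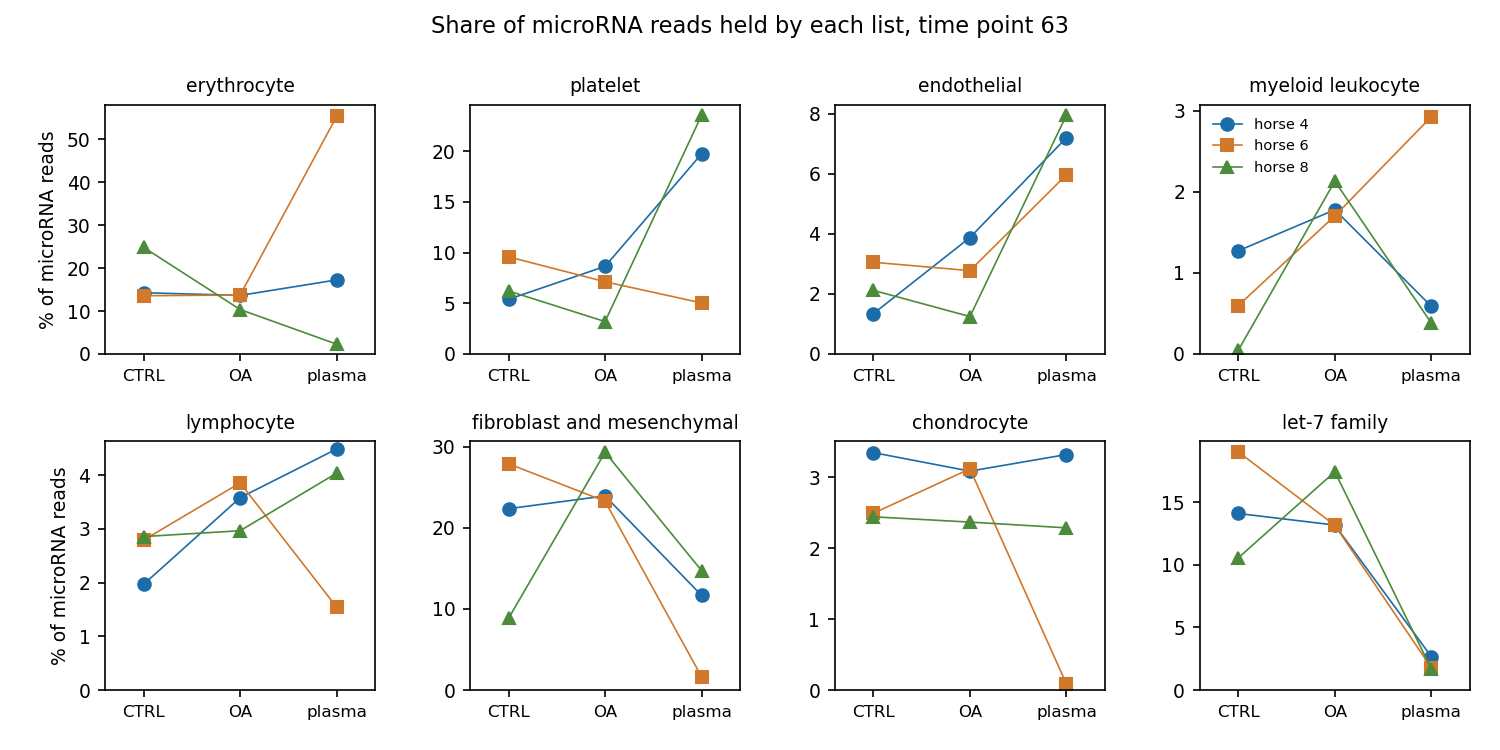
Share of microRNA reads (%) taken by microRNA lists in the CTRL joint, the OA joint and plasma, by horse. The lists shown are red blood cell, platelet, endothelial, myeloid, lymphocyte, mesenchymal, cartilage and let-7. The OA points lie above the CTRL points for the myeloid and lymphocyte lists and overlap with them for the others shown. Among the 6 synovial fluid libraries, the CTRL fluid of horse 8 is the highest for red blood cell microRNAs and the lowest for mesenchymal ones.

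To ask whether the joints differed at time point 63 more than they already did at the start, the joint difference was tested against that at time point 0. edgeR's test called 0 of 139 (0.0%), and 13 (9.35%) had an unadjusted p under 0.05, 12 in the positive direction (8.63%) and 1 in the negative (0.719%). All 13 were among the 65 microRNAs at 0 reads in some of the 4 groups compared, and 0 of the 74 with a read in all 4 groups reached that level. DESeq2 called 10 of the same 139. In edgeR's test miR-744 and miR-224 had the smallest p. At time point 0 both were read in 1 of 4 CTRL libraries and in 0 of 4 OA libraries. At time point 63 they were read in 0 of 3 CTRL libraries and in 3 and 2 of 3 OA libraries. Among the 74, the smallest p was that of miR-127 (unadjusted p = 0.0872, edgeR). That microRNA averaged 3587 ± 4794 CPM in the OA joint and 2857 ± 3267 CPM in the CTRL joint at time point 0 (SD, n = 4 each).

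Against the mean joint difference of time points 10 to 56, edgeR called 0 of 139 (0.0%), with 0 at an unadjusted p under 0.05. DESeq2 called 10 of the same 139. A read in all 12 groups was found for 63 of the 139, and the test has little power for the 76 others. miR-99a had the smallest p (log2 difference 2.87, SE 1.53; edgeR unadjusted p = 0.064, adjusted p = 1.00). Its CTRL joint averaged 12842 to 17912 CPM from time point 10 to 49, then 3184 ± 4254 CPM at 56 (SD, n = 4) and 2736 ± 2676 CPM at 63 (SD, n = 3). Its OA joint averaged 5304 to 14296 CPM from 10 to 56 and 11875 ± 3033 CPM at 63 (SD, n = 3). The level of the OA joint at time point 63 thus lay within its own earlier means, and the CTRL joint was at its lowest mean.

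For other microRNAs the earlier times show how far a joint mean moves. miR-16 averaged 11369 ± 4650.1 CPM in the OA joint and 1012 ± 898 CPM in the CTRL joint at time point 56 (SD, n = 4 each). At time point 63 the order was the opposite, 12219.6 ± 1269 and 35532 ± 24573 CPM (SD, n = 3 each). miR-451 kept 1 order more often: its mean was higher in the CTRL joint at each time point after 0, between 12708 and 39634 CPM against 8572 to 16009.9 CPM in the OA joint. The SD in the CTRL joint was 11371 to 41547 CPM over those times, and this order was not tested here. miR-532-5p was at 8156 ± 8527 CPM in the CTRL joint at 63 (SD, n = 3), above its other CTRL means of 12.4 to 701 CPM. Its level at 63 is set by horses 4 and 8.

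The plasma vesicle libraries of the same horses at time point 63 were unlike one another in depth, with 44470, 8305 and 1865513 microRNA reads in horses 4, 6 and 8, or 0.732%, 0.165% and 18.6% of the library. No test was made between plasma and the joints. miR-486-5p was at 127884, 479711 and 582 CPM in plasma, a wider spread than in either joint. let-7c was at 11896, 17339 and 898 CPM in plasma, under its levels in the joints of each horse. Others had plasma means near those of the OA joints: miR-22 averaged 22485 ± 9232 CPM in plasma and 24987 ± 1746 CPM in the OA joints (SD, n = 3 each). miR-99a was at 52957, 1204 and 50383 CPM in plasma, above both joints of horses 4 and 8 and below both joints of horse 6.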

How the data were processed

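The labels' protocols name the TriLink CleanTag kit for library preparation. The submitters' processing notes name cutadapt, Bowtie, edgeR and the EquCab3.0 build, with no version. Each deposited table lists whole-number read counts per small RNA, unnormalized, beside an RPM column scaled by the authors to the library total, which served only to find that total. Names with the horse prefix were kept as microRNAs. The members and the 17 lists were chosen with earlier results of these data known.

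Counts of 52 synovial fluid libraries in 14 groups were fitted with edgeR 4.0.16 in R 4.3.3 (TMM scaling, filterByExpr with a minimum count of 10, glmQLFit and glmQLFTest, Benjamini-Hochberg adjustment, threshold 0.05), so that all groups share 1 estimate of the spread. The code was tested on simulated counts. Each SE is the size of the fitted log2 fold change divided by the square root of the test's F statistic. It was thus derived from the test, and where a joint is at 0 it also depends on the prior count. Where a group is at 0 no fold is given, since the fitted value then depends on the prior count, and a 0 is read as up to 3 reads of its library. Numbers of microRNAs at equal depth are the expected numbers when reads are drawn without replacement. Alternatives were RLE scaling, no scaling, no filter, DESeq2 1.42.0, the horse as a block, the lane as a covariate, the 6 libraries alone and each horse left out. Leaving out the CTRL library of horse 8 alone was added after the data were seen.

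The pairing comes from the horse label, which ties both joints to an animal. Deviations from the group means (log2 of CPM plus 100, 139 microRNAs) correlated between the joints of a horse by -0.10, 0.077 and 0.065 for horses 4, 6 and 8. The rule for naming microRNAs took the 10 highest by mean CPM, the 6 of smallest p in each direction, up to 4 in each direction that were read in all 6 libraries and moved alike in 3 horses, the highest 2 tested per list, and the leaders of the tests against other times. Named after their values were seen were miR-125a-5p, miR-125b-5p, miR-142-5p, miR-199b-5p, miR-99b, let-7e, miR-100, miR-223, miR-342-3p and miR-150, and those DESeq2 called. Sequences are not shown, since no file used here holds them.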

Additional observations from a re-analysis of the deposited data

How the results depend on the processing

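With 3 horses and SEs of 0.47 to 4.89 on the log2 scale, small differences were not detectable at this depth, and the CTRL library of horse 8 limits every comparison of rare microRNAs. The count of calls between the joints was 0 with edgeR under RLE scaling, no scaling, no filter, the lane as a covariate, the 6 libraries alone, the horse as a block, each horse left out, and without the CTRL library of horse 8 alone. DESeq2 called 8 between the joints, 10 against time point 0 and 10 against the later times, and the cause was not tested. The block by horse changed no call; with it the numbers at an unadjusted p under 0.05 were 4, 13 and 0. It turned the sign of 7 of the 115 tested microRNAs with a read, none with a log2 fold change over 0.45 in size. Leaving out 1 horse gave differences in the microRNA share of -0.0133 to 0.425 percentage points, negative without horse 8, and 11.3 to 24.4 more microRNAs at equal depth.

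Among the microRNAs chosen to be named, the sign turned for miR-26a without scaling (-0.045) and without a filter (-0.021), for let-7a in the same settings (-0.032 and -0.00025), and for miR-29a with the replicate block (1.89, and 2.37 on the 6 libraries). Without the CTRL library of horse 8 alone it turned for miR-26a (-0.034), let-7c (-0.25), miR-10b (-0.055), miR-199a-3p and miR-199b-3p (-0.23), miR-144 (1.65) and miR-30e (0.68). Leaving out 1 horse gave the following ranges where the sign turned: -0.29 to 0.23 for let-7a, -0.28 to 0.43 for let-7c, -1.36 to 0.11 for miR-126-3p, -10.50 to 2.13 for miR-144, -0.47 to 0.79 for miR-199a-3p, -0.47 to 0.79 for miR-199b-3p, -0.41 to 0.91 for miR-21, -10.20 to 1.36 for miR-215, -1.63 to 0.28 for miR-221, -0.30 to -0.0023 for miR-26a, -1.44 to 4.28 for miR-29a, -0.44 to 2.07 for miR-29c, -2.98 to 0.89 for miR-30e, -0.68 to 9.15 for miR-376c, -0.77 to 0.83 for miR-486-5p. For miR-144, miR-215, miR-29c and miR-376c the widest values come from fits that left 1 joint without reads, and so depend on the prior count. The same holds for the 1.65 of miR-144. None of the microRNAs whose sign turned was called, and the cause was not tested.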
